A study of Mus musculus with 9 samples.

Results

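Wild type lenses of mixed genetic background were compared with wild type lenses of an inbred strain to ask how far gene expression differs between lenses that are both called wild type. The comparison used 6 of the 9 libraries of the study, 3 of each wild type, all from mouse lenses at 15.5 days post conception, with 30 lenses pooled in each of the independent biological replicates. Mixed wild type lenses carried Sip1 flox/flox alleles without Cre on a mixed strain background. Inbred wild type lenses came from C57Bl/6<har> mice, for which the labels give no further allele. The remaining 3 libraries came from conditional knockout (cKO) lenses, Sip1 flox/flox with MLR10Cre on the mixed background, and are used only for values set beside the wild types. Strain background, floxed alleles, sequencing depth and the kind of deposited table all differ between the wild types and cannot be told apart.

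The mixed tables list 190 genes, and 7676 genes are listed once in the inbred tables. A gene entered the comparison if it was in both, which gave 128 genes, 67.4% of the mixed list and 1.67% of the inbred list, and all 128 carried the same database identifier in both. In each of the 190 genes the authors' normalized values differed at least 2.505-fold between the cKO and mixed wild type means, so the mixed wild type libraries helped to choose these genes. Shares within the 128 therefore do not describe the lens transcriptome. The choice also favours mixed values that lie far from cKO, so the differences and p-values of single genes carry it too. How far it moved them was not tested.

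The lens is built from an epithelial sheet and from fibre cells that elongate, fill with crystallins and later degrade their nuclei and other organelles. Sip1 is the protein of Zeb2, a zinc finger repressor that binds pairs of E-box sequences. In a floxed allele an exon is flanked by recombination sites and is meant to function normally until Cre removes it. Laboratory strains carry different alleles at many loci, and a cross of strains also varies from embryo to embryo.

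Levels are given as RPKM, reads per kilobase of exon scaled to the mapped reads of the library, so that levels of different genes can be compared per length. Depth, recovered from the steps between low RPKM values, was 14141628 to 16687837 reads in the inbred libraries and 38674138 to 44071124 reads in the mixed wild type libraries. Every shared gene had at least 10 reads in each of the 6 libraries. No gene of the inbred tables had an inbred mean below 2 RPKM. A shared gene with a mixed mean under 2 RPKM could therefore only be lower in mixed wild type. This holds for the lower calls Spna1, Epn3, Fam46b, Slc8a1, Adcy9 and Cbl. Crystallins marked the tissue: all 17 of that list were in the inbred tables, and 1, Crygs, was also measured in mixed wild type. Zeb2 was not among the 190 genes, so the floxed locus itself could not be compared.

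On the log2(RPKM + 0.5) scale the wild types differed by less than 1.2-fold in 48 of the 128 genes and by 2-fold or more in 3. Differences were tested with limma on this scale, and a gene was called at a Benjamini-Hochberg adjusted p under 0.05. By this rule 63 genes (49.2%) were called, 39 (30.5%) higher and 24 (18.8%) lower in mixed wild type, and 65 were not called. Counts of called members in the gene lists below are to be read beside these shares. All 39 genes called higher were at lower levels in cKO than in mixed wild type, as were 85 of all 128 genes. The genes called lower were at higher levels in cKO, except Adc, Tubb2b and Gstp2. Apart from these exceptions, that is the direction which the choice of genes favours. The log2 differences ran from -1.02 to 1.05, with a median of 0.08 and quartiles of -0.26 and 0.38. In 73 genes (57.0%) the 3 mixed libraries did not overlap the 3 inbred ones, with mixed above in 45 and below in 28. Of these 73, 13 were not called.

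**Figure D1:**
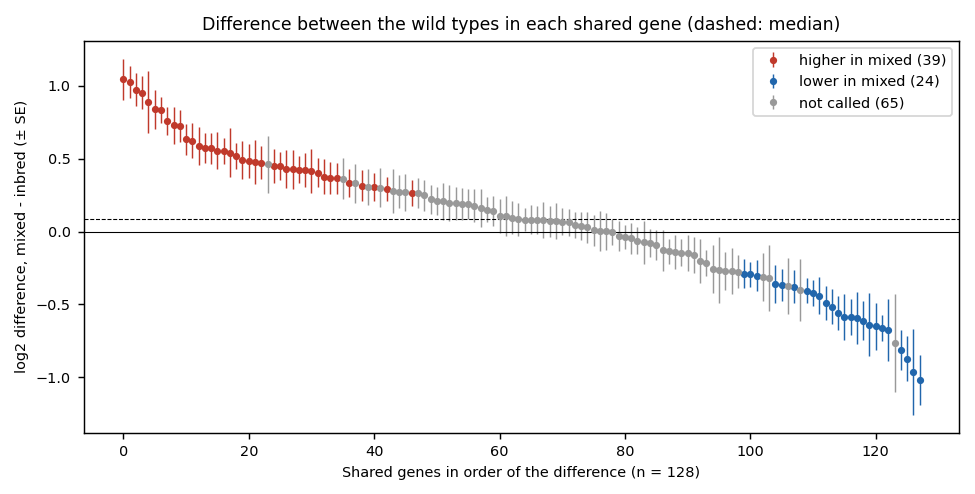
Log2 difference between mixed and inbred wild type (vertical axis, with the limma standard error) for each of the 128 shared genes in order of size (horizontal axis), coloured by call; the dashed line is the median. The differences run from -1.02 to 1.05, and the genes not called fill the middle of the order.

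Replicates were closer to each other than to the other wild type. The median absolute log2 difference over the 128 genes was 0.12 to 0.16 between mixed libraries and 0.16 to 0.19 between inbred libraries. Between a mixed and an inbred library it was 0.23 to 0.43 over the 9 pairs. The closest pair across groups was inbred replicate 2 with mixed replicate 1, and the farthest was inbred replicate 3 with mixed replicate 3.

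The genes with the largest differences were first described by library. Ceacam10, an immunoglobulin-family gene of the carcinoembryonic antigen group, was at 6.72, 9.06 and 6.03 RPKM in inbred and 14.1, 14.7 and 17.3 RPKM in mixed wild type. All 3 mixed libraries lay above all 3 inbred libraries, and the mean was 2.12-fold higher (log2 difference 1.05, SE 0.14, limma adjusted p = 0.000449). Its relative Ceacam2 had means of 6.11 and 7.90 RPKM and was not called (limma adjusted p = 0.058), except without inbred replicate 2 (0.00774), with exon length removed (0.0358) and in the normalized values (0.0269). Gpx8, a glutathione peroxidase family gene of the endoplasmic reticulum, was at 11.2, 8.69 and 9.40 RPKM in inbred and 20.1, 22.3 and 18.7 RPKM in mixed wild type. Here too the groups were apart, with a 2.08-fold higher mean in mixed wild type (log2 difference 1.03, SE 0.11, limma adjusted p = 0.000203). In the authors' normalized values Gpx8 had as little as 0.11 of the median value per RPKM and kilobase in a library, so the 2 deposited measures differ for this gene. Rab6b, a small GTPase gene of vesicle traffic, was at 4.203, 4.59 and 5.45 RPKM in inbred and 2.74, 1.61 and 1.999 RPKM in mixed wild type. Its mean fell 2.24-fold with groups apart, and its log2 difference was the lowest of all shared genes (-1.02, SE 0.17, limma adjusted p = 0.00142). By the ratio of means the called gene Cbl, a ubiquitin ligase gene with a mean below 2 RPKM, fell more, 2.42-fold. Cbl was at 1.72, 2.28 and 4.11 RPKM in inbred and 1.71, 0.711 and 0.927 RPKM in mixed wild type, groups that nearly touch. Its call (limma adjusted p = 0.0211) was lost without inbred replicate 3 (0.0962) or under quantile normalization (0.237). In bulk lens RNA, fewer cells that express a gene and less RNA per cell cannot be told apart, for these genes and for all that follow.

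**Figure D2:**
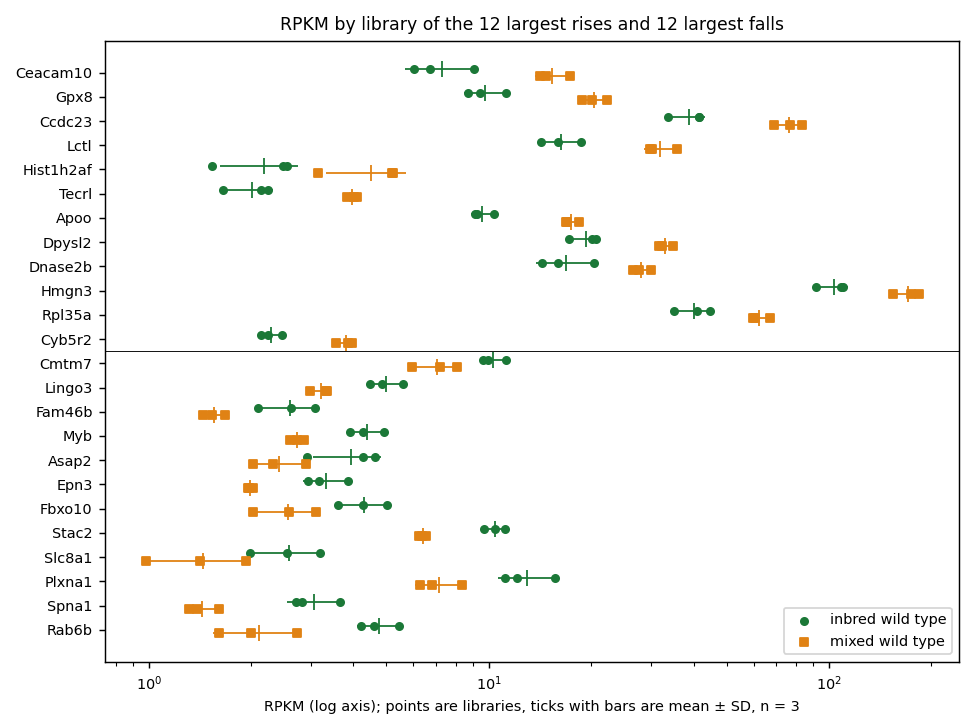
RPKM on a log axis for each inbred (circles) and mixed (squares) wild type library of the 12 largest rises, above the line, and 12 largest falls among called genes with groups apart and a mean of at least 2 RPKM; ticks with bars are mean ± SD, n = 3. Ceacam10 mixed libraries sit at 14.1 to 17.3 RPKM against 6.03 to 9.06 RPKM in inbred; Asap2 and Slc8a1 are the genes whose groups come closest.

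Lctl, Dnase2b and Birc7, genes of lens fibre cells, were higher in mixed wild type. Of the 39 genes of the fibre list 4 were measured, and these 3 were called higher beside 30.5% of all shared genes, with a median log2 difference of 0.57 for the 4 beside 0.08 for all 128 genes. Lctl, a lactase-like glycosidase gene of the lens fibre, was at 15.9, 18.6 and 14.2 RPKM in inbred and 30.2, 29.8 and 35.8 RPKM in mixed wild type. Dnase2b, the nuclease that degrades DNA of fibre cell nuclei, was at 15.98, 20.4 and 14.3 RPKM in inbred and 27.7, 26.6 and 30.0 RPKM in mixed wild type. Birc7, a gene of the inhibitor of apoptosis family, was at 26.8, 32.6 and 24.3 RPKM in inbred and 35.2, 36.1 and 40.7 RPKM in mixed wild type. Each of the 3 had its groups apart, with means 1.96-fold, 1.66-fold and 1.34-fold higher (limma adjusted p = 0.000302, 0.00142 and 0.0158). The inbred order was the same in all 3 genes, with replicate 2 the highest and replicate 3 the lowest. Under quantile normalization Dnase2b (limma adjusted p = 0.134) and Birc7 (limma adjusted p = 0.111) were not called, and Birc7 was also lost without inbred replicate 3 (0.0598) or mixed replicate 3 (0.0517). The fourth member, the glutathione transferase gene Gstm1, had means of 91.7 ± 5.94 and 95.8 ± 4.86 RPKM (SD, n = 3, limma adjusted p = 0.567), and was called higher under quantile normalization (0.00825) and in the normalized values (0.00324). The crystallin gene Crygs was at 354, 471 and 343 RPKM in inbred and 370, 430 and 449 RPKM in mixed wild type, with overlapping groups (limma adjusted p = 0.529). The fibre list was put together with earlier results of these libraries known, so its direction is not independent evidence. All 4 measured members were also lower in cKO than in mixed wild type, so the choice of genes favoured high mixed values for them.

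The 250 bases before the transcription starts of these 3 fibre genes are shown as a description only. They are from RefSeq on GRCm38.p6 in the order 5′ to 3′ of each gene. The sequence is that of the reference strain and not of the mixed mice. Capitals mark matches on either strand to the motifs GAANNTTC (heat shock factor), TGCTGAC (Maf), CACCTG (the E-box that Zeb2 binds) and TATAAA, and no matches overlap.
Lctl, chr9:64116897-64117146, plus strand: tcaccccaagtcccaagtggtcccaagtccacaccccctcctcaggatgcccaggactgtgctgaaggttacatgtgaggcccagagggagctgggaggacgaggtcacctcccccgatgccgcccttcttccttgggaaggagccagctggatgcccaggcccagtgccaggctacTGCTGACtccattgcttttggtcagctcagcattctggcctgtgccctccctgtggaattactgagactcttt
Dnase2b, chr3:146615599-146615848, minus strand: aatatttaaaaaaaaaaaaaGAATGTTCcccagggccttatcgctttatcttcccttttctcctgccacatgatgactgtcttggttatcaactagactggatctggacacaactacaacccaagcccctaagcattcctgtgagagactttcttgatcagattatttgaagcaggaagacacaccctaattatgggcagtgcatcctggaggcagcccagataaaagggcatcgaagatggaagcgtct
Birc7, chr2:180928773-180929022, plus strand: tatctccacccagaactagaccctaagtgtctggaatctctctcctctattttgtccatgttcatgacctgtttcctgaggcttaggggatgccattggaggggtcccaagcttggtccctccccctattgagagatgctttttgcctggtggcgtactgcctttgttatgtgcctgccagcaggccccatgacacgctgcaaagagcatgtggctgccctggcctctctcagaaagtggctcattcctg
Lctl holds TGCTGAC 73 bases before its start, which 3.81% of all 32851 windows of this length hold. Dnase2b holds GAATGTTC, a match to GAANNTTC, 230 bases before its start, and 6.69% of windows hold that motif. CACCTG, in 17.2% of windows, and TATAAA, in 12.4%, were found in none of the 3, and Birc7 held no match. A match is a description of letters, and no binding was measured.

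Genes of the erythroid list, known from red cells, went in different directions. Which cells held their transcripts was not measured. Of 40 genes on the list 4 were measured, 1 called higher, 1 called lower and 2 not called. Ermap, an erythroblast membrane gene, was at 9.29, 9.51 and 8.21 RPKM in inbred and 13.3, 12.7 and 13.4 RPKM in mixed wild type, with groups apart (log2 difference 0.52, SE 0.09, limma adjusted p = 0.00142). Spna1, the alpha spectrin gene of the red cell skeleton, was at 2.83, 2.70 and 3.65 RPKM in inbred and 1.61, 1.39 and 1.31 RPKM in mixed wild type. Its mean was 2.13-fold lower (log2 difference -0.87, SE 0.15, limma adjusted p = 0.00165), opposite to Ermap. The globin genes overlapped between groups, and Hba-a2 was the most abundant of the 4. Hba-a2 was at 421, 389 and 365 RPKM in inbred and 391.9, 529 and 506 RPKM in mixed wild type (limma adjusted p = 0.104), and 91.0% of the 31-base words of its longest transcript occur in other genes. Hba-x, an embryonic globin gene, was at 5.56, 4.38 and 3.92 RPKM in inbred and 5.68, 9.22 and 5.20 RPKM in mixed wild type (limma adjusted p = 0.071). Hba-x was called without inbred replicate 1 (limma adjusted p = 0.045) or mixed replicate 3 (0.0196), and Hba-a2 without mixed replicate 1 (0.0142). The summed level of the 4 erythroid genes was 381 to 439 RPKM in inbred and 413 to 552 RPKM in mixed libraries, and the part of red cells in other differences was not tested.

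Markers of other cell types gave few measurements. Of 20 endothelial genes Tek, a vessel receptor gene, was measured, at 2.77, 2.28 and 3.09 RPKM in inbred and 2.80, 2.82 and 2.51 RPKM in mixed wild type. Its groups overlapped fully (log2 difference 0.01, SE 0.14). Of 28 retinal genes Rbp3, the retinoid carrier between photoreceptors and pigment epithelium, was measured, with means of 8.01 ± 1.16 and 6.69 ± 1.58 RPKM (SD, n = 3, limma adjusted p = 0.202), and was called lower under median centring (0.017). None of the macrophage list was in the inbred tables, and none of the surface ectoderm, pigment cell or periocular mesenchyme lists was among the shared genes. Of 35 neuronal genes 4 were measured, 1 called higher, 1 lower and 2 not called. Dpysl2, a microtubule regulator of growing axons, was at 20.6, 20.1 and 17.2 RPKM in inbred and 32.3, 34.9 and 31.7 RPKM in mixed wild type (log2 difference 0.76, SE 0.10, limma adjusted p = 0.00033). Its neighbour Stmn4, with a single protein-coding gene between them in RefSeq, had means of 2.70 and 2.95 RPKM and was not called (limma adjusted p = 0.47). Stmn4 had its groups apart and was called higher under quantile normalization (limma adjusted p = 0.0444). Uchl1, a ubiquitin hydrolase gene abundant in neurons, was lower in mixed wild type, at 142, 158 and 142 RPKM against 194, 183 and 165 RPKM in inbred (limma adjusted p = 0.0332). The Uchl1 call was lost when any of 4 libraries was left out (limma adjusted p = 0.076 to 0.149), and in the authors' normalized values its direction turned (log2 difference 0.09). Cend1, a gene of neuronal cell cycle exit, had its groups apart at means of 5.86 and 4.76 RPKM but was not called (limma adjusted p = 0.0643), except lower under median centring (0.017) and with exon length removed (0.0358).

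**Figure D3:**
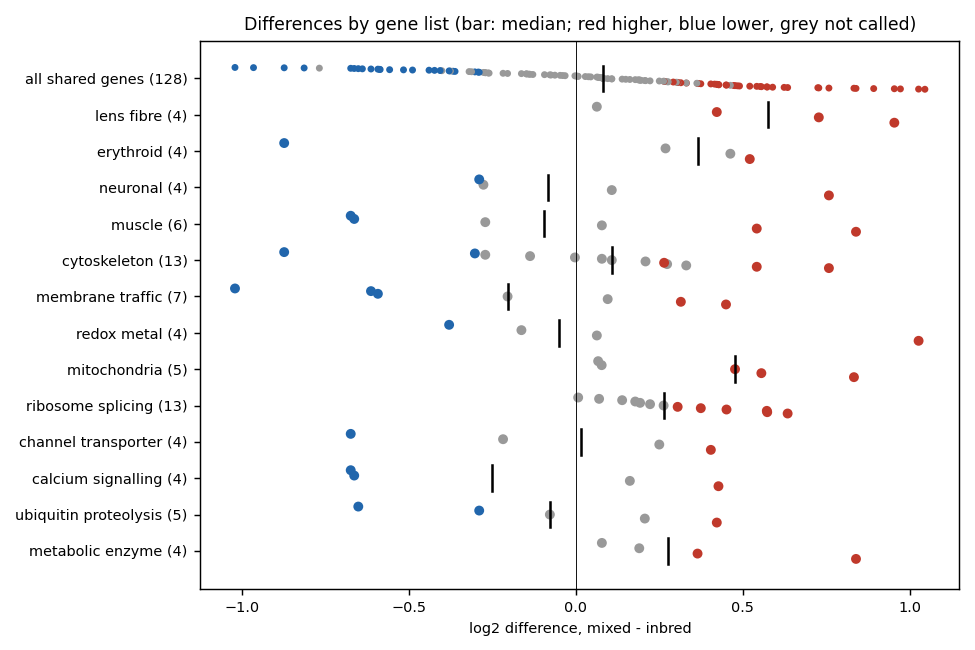
Log2 difference between mixed and inbred wild type for each measured member of the lists with at least 4 of them, below all 128 shared genes; red points are called higher, blue lower and grey not called, and bars are medians. Fibre (median 0.57) and mitochondrial (0.48) genes lie to the right, and most other lists have members on both sides.

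Muscle genes were called in both directions. Of 51 muscle genes 6 were measured, 2 called higher, 2 lower and 2 not called. Tecrl, an enoyl reductase-like gene known from heart muscle, was at 1.66, 2.25 and 2.14 RPKM in inbred and 4.005, 3.83 and 4.08 RPKM in mixed wild type (log2 difference 0.84, SE 0.13, limma adjusted p = 0.0013). Actn2, a sarcomeric actinin gene, had means of 5.88 ± 1.38 and 8.77 ± 1.83 RPKM (SD, n = 3, limma adjusted p = 0.0238), a call lost without inbred replicate 1, inbred replicate 3 or mixed replicate 3 (0.0698 to 0.119) and under quantile normalization (0.0724). Stac2, an adaptor of calcium channels, was at 9.68, 10.4 and 11.2 RPKM in inbred and 6.23, 6.54 and 6.38 RPKM in mixed wild type. Its mixed values spread over 0.16 RPKM (SD, n = 3), and it was 1.63-fold lower (log2 difference -0.66, SE 0.09, limma adjusted p = 0.000449). Slc8a1, the sodium-calcium exchanger gene of heart, was at 1.99, 2.56 and 3.18 RPKM in inbred and 1.93, 0.982 and 1.42 RPKM in mixed wild type. Its groups nearly touch, and the call (limma adjusted p = 0.0248) was lost without inbred replicate 2 (0.0571), inbred replicate 3 (0.112) or mixed replicate 2 (0.0625) and under quantile normalization (0.154). Stac2 and Slc8a1 are also on the calcium list, of whose 4 measured genes 1 was called higher, 2 lower and 1, Rcan2, not called. S100a11, a calcium-binding gene, was the one called higher, at 44.4, 49.9 and 35.3 RPKM in inbred and 51.7, 64.6 and 57.5 RPKM in mixed wild type (limma adjusted p = 0.0238). Its call was lost without inbred replicate 3 (0.089) or mixed replicate 2 (0.0585), under median centring (0.0552) and with exon length removed (0.243). Pgm5, a phosphoglucomutase relative of adherens junctions, was at 31.2 ± 2.79 and 32.9 ± 1.75 RPKM (SD, n = 3) and was not called. In the normalized values Pgm5 and Rcan2 were called higher (limma adjusted p = 0.00369 and 0.00845).

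Receptors of axon guidance were lower in mixed wild type in both measured members, beside 18.8% called lower over all shared genes. The inbred tables hold 26 genes of the guidance list. Both measured genes are among the 43 longest shared genes, of which 12 were called higher and 14 lower. Plxna1, a semaphorin receptor gene, was at 11.2, 12.1 and 15.6 RPKM in inbred and 8.34, 6.30 and 6.81 RPKM in mixed wild type, 1.82-fold lower with groups apart (log2 difference -0.81, SE 0.14, limma adjusted p = 0.00142). Neo1, the neogenin receptor gene, was at 10.8, 13.1 and 13.5 RPKM in inbred and 10.3, 8.67 and 9.59 RPKM in mixed wild type (log2 difference -0.37, SE 0.11, limma adjusted p = 0.0209). Neo1 was no longer called without inbred replicate 2 (0.0556), inbred replicate 3 (0.0874) or mixed replicate 2 (0.0625), in the normalized values (0.763) and with exon length removed (0.0788). In both genes inbred replicate 3 was the highest library, and mixed replicate 1 the highest of the mixed libraries.

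Membrane traffic genes were called in both directions, 3 lower and 2 higher of 7 measured. Epn3, an epsin of endocytosis, was at 3.17, 2.94 and 3.84 RPKM in inbred and 2.03, 1.97 and 1.96 RPKM in mixed wild type (log2 difference -0.61, SE 0.13, limma adjusted p = 0.00526). Asap2, a GTPase activator for Arf proteins, had means of 3.93 ± 0.90 and 2.42 ± 0.45 RPKM (SD, n = 3), and its call (limma adjusted p = 0.021) was lost without inbred replicate 2 (0.0606) or 3 (0.0954) and under quantile normalization (0.145). Pacsin3, an adaptor of endocytosis, was higher in mixed wild type, at 7.52, 7.85 and 8.32 RPKM against 5.29, 6.12 and 5.54 RPKM. Stx11, a syntaxin of vesicle fusion, was 1.25-fold higher (limma adjusted p = 0.0309), and Syt5 and Grtp1 were not called. Under median centring Pacsin3 (limma adjusted p = 0.0603) and Stx11 (0.261) were not called, nor under quantile normalization (0.0532 and 0.364). Stx11 was also lost without inbred replicate 1 or 3 or mixed replicate 1 or 3 (0.0516 to 0.13).

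The cytoskeleton list had 13 measured members, of which 3 were called higher, 2 lower and 8 not called. Tubb2b, a beta tubulin gene, was at 54.8, 56.0 and 69.1 RPKM in inbred and 48.6, 46.9 and 49.5 RPKM in mixed wild type. This 1.24-fold fall (limma adjusted p = 0.0338) was lost without inbred replicate 3 (0.0843) or any mixed library (0.067 to 0.0828), and 45.9% of its words are shared with other genes. Its neighbour Tubb2a, which shares 56.4%, was at 105 ± 4.62 and 95.5 ± 2.67 RPKM (SD, n = 3) with groups apart but was not called (limma adjusted p = 0.2). In the authors' normalized values Tubb2b had a log2 difference of 0.01 (limma adjusted p = 0.939), and Tubb2a was called higher in mixed wild type (0.33). Tubb2a was called lower under median centring (log2 difference -0.28, limma adjusted p = 0.0449) and with exon length removed (-0.20, 0.0473). Tubb4 was at 17.3 RPKM in either wild type and was not called, except lower under quantile normalization (limma adjusted p = 0.0249). Tppp3, a tubulin polymerization gene, was 1.202-fold higher (limma adjusted p = 0.0345), a call kept in 1 of the 6 fits that leave out a library, and its direction turned under quantile normalization (log2 difference -0.07).

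Of 5 mitochondrial genes 3 were called, all higher in mixed wild type, beside 49.2% called and 30.5% called higher over all shared genes. Apoo, a gene of the inner membrane contact site complex, was at 10.4, 9.09 and 9.24 RPKM in inbred and 16.9, 18.4 and 16.9 RPKM in mixed wild type (log2 difference 0.83, SE 0.09, limma adjusted p = 0.000203). It shares 46.8% of its words with other genes. Ndufa1, a complex I subunit gene and the most abundant shared gene, was at 811, 716 and 702 RPKM in inbred and 955, 1258 and 1078 RPKM in mixed wild type (limma adjusted p = 0.0061), a call lost under quantile normalization (0.112). The mitochondrially encoded mt-Nd6 was at 917, 682 and 638 RPKM in inbred and 1016, 1166 and 907 RPKM in mixed wild type, with groups that overlap (limma adjusted p = 0.0259). The mt-Nd6 call was lost without inbred replicate 2 (0.103), inbred replicate 3 (0.135) or mixed replicate 2 (0.0625), under quantile normalization (0.392) or median centring (0.0955), and with exon length removed (0.0997). The ATP synthase gene mt-Atp6 was at 832 ± 83.7 and 878 ± 92.9 RPKM (SD, n = 3), and the complex I gene Ndufb4 at 35.2 ± 2.92 and 36.9 ± 1.78 RPKM. Neither was called, but both were called higher in the normalized values (limma adjusted p = 0.00411 and 0.00165). Under quantile normalization mt-Atp6 was called lower (limma adjusted p = 0.0089). The 2 genes share 99.5% and 38.3% of their words with other genes.

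Ribosomal protein genes, 12 in number, had positive differences throughout, with a median of 0.28, and 6 were called higher and 6 not called. Over all 128 genes the median was 0.08, with 49.2% called and 30.5% called higher. Rpl35a rose the most, from 44.6, 41.0 and 35.02 RPKM in inbred to 60.6, 67.0 and 59.8 RPKM in mixed wild type (log2 difference 0.63, SE 0.11, limma adjusted p = 0.00142). Rpl17 and Rpl39 were called with log2 differences of 0.57 each. Rpl11, Rpl36a and Rps29 were called with log2 differences of 0.45, 0.37 and 0.31. Rpl11 lost its call without inbred replicate 3 (limma adjusted p = 0.0505), and Rpl36a and Rps29 without inbred replicate 2 or 3 or mixed replicate 2 or 3 (0.0698 to 0.105). Of the 12 genes 3 were called without inbred replicate 3, 4 without inbred replicate 2, mixed replicate 2 or mixed replicate 3, and 8 without inbred replicate 1 or mixed replicate 1. Rpl37a stood at 514, 459 and 438 RPKM in inbred and 431, 495 and 492 RPKM in mixed wild type. Its log2 difference was 0.007 (limma adjusted p = 0.97). It was called lower under quantile normalization (limma adjusted p = 0.0484) and with exon length removed (0.00795), and higher in the normalized values (0.000127). The direction depended on scaling: under quantile normalization 7 of the 12 were positive, 4 were called higher and 2 lower, and under median centring 10 were positive and 3 called higher. These genes share 8.81% to 79.9% of their words with other genes, and in some library each had at most 0.34 of the median normalized value per RPKM and kilobase. Their values are uncertain for that reason, and 11 of the 12 were called higher in the normalized values. The splicing factor gene Hnrnpa1, with a log2 difference of 0.14, was not called (limma adjusted p = 0.282).

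Chromatin genes included Hmgn3, a nucleosome-binding gene, at 109, 110 and 91.4 RPKM in inbred and 155, 184 and 174 RPKM in mixed wild type. It was 1.65-fold higher with groups apart (log2 difference 0.72, SE 0.11, limma adjusted p = 0.000895). Elovl4, a fatty acid elongase gene with 2 protein-coding genes between it and Hmgn3 in RefSeq, was 1.33-fold higher as well (limma adjusted p = 0.02), a call lost without any of the mixed libraries (0.0567 to 0.0896) or under median centring (0.278). Hist1h2af, which encodes an H2A histone, measured 2.55, 1.54 and 2.48 RPKM in inbred and 5.18, 3.14 and 5.23 RPKM in mixed wild type, from 10 to 92 reads. It was called (limma adjusted p = 0.0076), but 94.3% of its words occur in other genes and in the authors' normalized values its log2 difference was -0.04 (limma adjusted p = 0.923); with exon length removed the adjusted p was 0.0935. The Polycomb gene Cbx6 had the largest SD of log2 values between inbred replicates, at 1.12, 3.93 and 3.04 RPKM, against 1.23, 1.72 and 0.848 RPKM in mixed wild type. It was not called (log2 difference -0.77, limma adjusted p = 0.0794), but was called lower without inbred replicate 1 (-1.196, 0.00376), without mixed replicate 2 (-0.95, 0.0284) and under median centring (-0.915, 0.00136).

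Of 4 redox genes 1, Gpx8, was called higher, 1 lower and 2 not called. Gstp2, a glutathione transferase gene, was at 68.6, 58.0 and 56.8 RPKM in inbred and 41.6, 53.1 and 46.1 RPKM in mixed wild type (limma adjusted p = 0.0211), and shares 78.1% of its words. Its call was lost without inbred replicate 1 or without mixed replicate 1 or 3 (0.0517 to 0.0697), or in the normalized values (0.146). Gsta4, of another class of the same enzymes, was not called (limma adjusted p = 0.293). Of 4 metabolic enzyme genes Tecrl and Elovl4 were called higher, and Cyp7b1 and Pgm5, with log2 differences of 0.19 and 0.08, were not called. Cyb5r2, a cytochrome b5 reductase gene outside these lists, was at 2.15, 2.47 and 2.25 RPKM in inbred and 3.87, 3.57 and 3.95 RPKM in mixed wild type, 1.66-fold higher (limma adjusted p = 0.00253).

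Of 2 genes of the fibroblast growth factor list 1 was called higher and 1 not called. Fgfbp3, a binding protein that releases fibroblast growth factors from matrix, was at 6.49, 5.85 and 5.91 RPKM in inbred and 9.22, 9.53 and 8.70 RPKM in mixed wild type. It was 1.504-fold higher with groups apart (log2 difference 0.55, SE 0.09, limma adjusted p = 0.00142). The locus of Fgfbp3 and Ide is known to vary in copy number within C57BL/6J stocks, and the part of gene copies was not tested. Dusp6, a feedback phosphatase of the same pathway, was at 7.02 ± 0.38 and 6.56 ± 0.64 RPKM (SD, n = 3, limma adjusted p = 0.466), and was called lower under quantile normalization (log2 difference -0.22, 0.047). The Notch list member Hes6, the immediate early gene Btg2 and the glucagon gene Gcg were within 1.04-fold of each other between wild types, and none was called. Gcg was called in opposite directions under quantile normalization (log2 difference -0.31) and in the normalized values (0.31). Scn11a, a sodium channel gene of sensory neurons, was 1.35-fold higher (limma adjusted p = 0.00764) and was not called under median centring (0.12). Cnrip1, a cannabinoid receptor binding gene, was 1.29-fold higher (limma adjusted p = 0.02) and was lost without any of the mixed libraries (0.0575 to 0.0795) or under median centring (0.326).

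Among further genes of the largest rises, Ccdc23, whose small protein binds tubulin-modifying vasohibins, was at 41.4, 41.4 and 33.5 RPKM in inbred and 68.8, 76.9 and 83.4 RPKM in mixed wild type (log2 difference 0.97, SE 0.11, limma adjusted p = 0.000258). Ccdc23 and Ermap are direct neighbours in RefSeq, and both were called higher. Ndufa1 and Rpl39, with 3 protein-coding genes between them, were both called higher too. Besides these pairs and Hmgn3 with Elovl4, no pair with 7 or fewer protein-coding genes between them was called in the same direction. Rnf113a1, directly beside Ndufa1, was not called (limma adjusted p = 0.195). Pappa and Whrn, with 7 genes between them, were called higher and lower. The Whrn call was kept in 1 of the 6 fits that leave out a library. It was lost under quantile normalization (limma adjusted p = 0.469) and with exon length removed (0.324). The Pappa call was lost without inbred replicate 3 (limma adjusted p = 0.0582) and under median centring (0.053). No shared gene had fewer than 37 protein-coding genes between it and Zeb2. The nearest were Dapl1 and Gcg, and neither was called. Dapl1 was called lower without inbred replicate 3 (limma adjusted p = 0.0353) and under median centring (0.0314). Of the largest falls, Myb, a transcription factor gene of progenitor cells, was at 4.93, 3.91 and 4.27 RPKM in inbred and 2.73, 2.87 and 2.60 RPKM in mixed wild type (log2 difference -0.59, SE 0.12, limma adjusted p = 0.00421). Fbxo10, a ubiquitin ligase adaptor gene, fell by 0.65, Fam46b by 0.59, the transmembrane gene Lingo3 by 0.56 and Cmtm7 by 0.52 on the log2 scale, all with groups apart. Under quantile normalization Fam46b was not called (log2 difference -0.22, limma adjusted p = 0.469).

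Some called genes rested on few libraries. Cpt1a, the carnitine palmitoyltransferase gene of fatty acid oxidation, was at 8.19, 12.7 and 10.4 RPKM in inbred and 13.8, 12.02 and 16.1 RPKM in mixed wild type, with overlapping groups, and its call (limma adjusted p = 0.0452) was kept in 2 of the 6 fits that leave out a library. Adcy9, an adenylate cyclase gene, also overlapped, at 1.73, 2.81 and 2.83 RPKM in inbred and 1.77, 0.994 and 1.42 RPKM in mixed wild type, and its call (limma adjusted p = 0.0304) was kept in 2 of those fits. Malat1, a nuclear noncoding RNA and one of the 6 most abundant shared genes, was at 653, 612 and 585 RPKM in inbred and 881, 745 and 672 RPKM in mixed wild type. Its groups were apart but it was not called (limma adjusted p = 0.0586), except without mixed replicate 3 (0.0455), in a joint fit of 9 libraries (0.0395) and in the normalized values (0.00103). Cited4, a transcriptional coactivator gene, had the smallest difference, with means of 3.87 and 3.84 RPKM.

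Of the 63 calls, 36 were kept in all 6 fits that leave out a library, and 26 were kept in every one of 20 other settings that tested the gene. The 16 of these that were higher in mixed wild type were Ceacam10, Gpx8, Ccdc23, Lctl, Tecrl, Apoo, Dpysl2, Hmgn3, Rpl35a, Cyb5r2, Ngfr, Rpl39, Fgfbp3, Ermap, Pla2g7 and Prdm16. The 10 that were lower were Rab6b, Spna1, Plxna1, Stac2, Fbxo10, Epn3, Myb, Lingo3, Cmtm7 and Magi2. All 16 were lower and all 10 higher in cKO than in mixed wild type, the direction which the choice of genes favours. No setting removed that choice, so a call kept in every setting can still carry it. Apoo and Rpl39 were tested in 18 of the settings, and Gpx8, Lctl, Rpl35a, Plxna1, Myb and Magi2 in 19. Limits on shared words or on normalized values left them out of the rest, which could not drop their calls. Ngfr, Pla2g7, Prdm16 and Magi2 are named for this stability, after their values were seen. Ngfr, a neurotrophin receptor gene, rose from 6.10 ± 0.42 to 9.53 ± 1.85 RPKM, and Pla2g7, which encodes a secreted phospholipase, from 158 ± 22.5 to 219 ± 5.18 RPKM (SD, n = 3). The scaffold gene Magi2 was at 5.33 ± 0.56 RPKM in inbred and 3.65 ± 0.35 RPKM in mixed wild type.

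**Figure D4:**
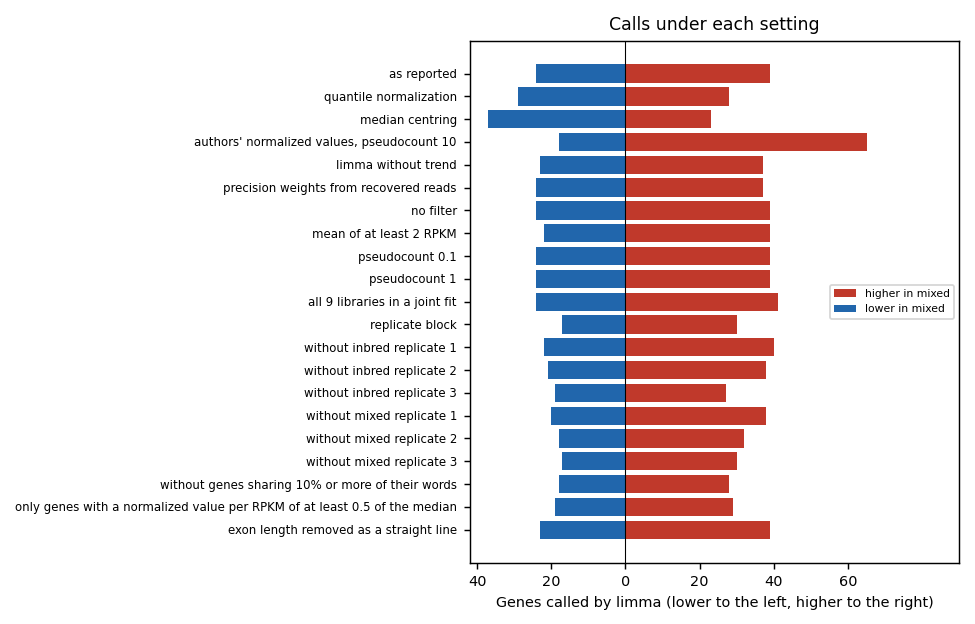
Genes called lower (to the left) and higher (to the right) in mixed wild type by limma, counted for the fit as reported and each other setting. The fit as reported has 24 and 39, median centring 37 and 23, and the authors' normalized values 18 and 65.

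The balance of higher and lower calls moved with the scaling. The fit as reported had 39 higher and 24 lower, quantile normalization 28 and 29, median centring 23 and 37, and the authors' normalized values 65 and 18. The median difference over all genes, 0.08 as reported, was -0.02, -0.06 and 0.33 under these. Of the 63 calls 42, 47 and 53 were kept in the same direction. With genes chosen for a difference from the knockout, no set of unchanged genes is at hand to fix the scale.

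Exon length moved with the differences. Among the 43 shortest genes (399 to 1478 bases) 13 were called higher and 5 lower. Among the 43 longest (3611 to 11114 bases) 12 were called higher and 14 lower, Spna1, Plxna1 and Rab6b among them. Over the 128 genes, which share libraries and are not independent replicates, log2 exon length and the difference had Pearson's r = -0.31 and Spearman's rho = -0.25. Libraries of the same group differed along length as well. The deviation of a library from its group mean had a rho with exon length of -0.55, 0.14 and 0.42 in inbred replicates 1, 2 and 3, and of 0.56, -0.49 and -0.15 in mixed replicates 1, 2 and 3. Over all 7676 inbred genes the inbred values were -0.49, 0.07 and 0.45. With a straight line in exon length removed from each library, 62 genes were called, 39 higher and 23 lower, and 52 of the 63 calls were kept.

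**Figure D5:**
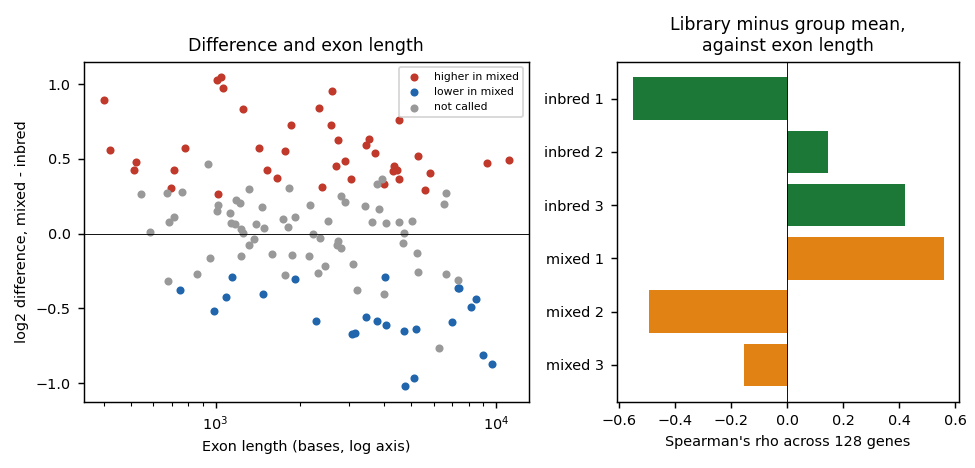
Left, log2 difference between mixed and inbred wild type against exon length (log axis) for the 128 shared genes, coloured by call. Right, Spearman's rho across these genes between exon length and each library's deviation from its group mean; inbred replicate 1 (-0.55) and mixed replicate 2 (-0.49) lie on one side, and inbred replicate 3 (0.42) and mixed replicate 1 (0.56) on the other.

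The median SD of log2 values between replicates was 0.15 in inbred and 0.10 in mixed wild type, and the SD that counting error alone would give was 0.06 and 0.04. The inbred SD was the larger in 88 of 128 genes. The inbred libraries were less deep, and the mixed ones helped to choose these genes. How far either moved the SDs was not tested. In 17 genes of the inbred and 18 of the mixed libraries the spread between replicates was smaller than counting error alone would give.

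Levels in cKO lenses are set beside the wild types as values only, because the genes were chosen on cKO and mixed wild type. Over all shared genes the median absolute log2 difference was 0.31 between the wild types and 1.53 between cKO and mixed wild type. In 20 of the shared genes the wild type difference was at least 0.5 of the cKO difference in size. Lctl, Ceacam10, Gpx8, Rab6b and Plxna1 are among these 20 and do not stand for the other shared genes. Lctl was at 16.3 ± 2.22, 31.9 ± 3.35 and 14.2 ± 2.94 RPKM in inbred, mixed and cKO lenses (SD, n = 3). In the same order Ceacam10 was at 7.27 ± 1.58, 15.4 ± 1.70 and 7.21 ± 1.69 RPKM, and Gpx8 at 9.77 ± 1.296, 20.4 ± 1.78 and 8.93 ± 1.07 RPKM. Rab6b was at 4.75 ± 0.64, 2.12 ± 0.57 and 7.93 ± 0.27 RPKM, and Plxna1 at 13.0 ± 2.35, 7.15 ± 1.06 and 14.1 ± 0.45 RPKM. Dnase2b was at 16.9 ± 3.14, 28.1 ± 1.74 and 8.67 ± 0.99 RPKM, and Crygs at 389 ± 70.9, 416 ± 41.3 and 3725 ± 454 RPKM.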

How the data were processed

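RNA-seq tables of 3 mixed and 3 inbred wild type libraries were analysed, with 3 cKO libraries for values only. Per the file headers, the authors deposited RPKM and normalized expression values, a score of unstated unit, for each library, and exon length in the inbred tables. The submitters' processing notes name CASAVA 1.8.2. Aligner, gene annotation and build: not given in the sources used here. Rows with repeated symbols, 24 in each inbred table, were left out. RPKM times exon length fell on whole reads (tolerance 0.1) for 100% of the values used, which gave the depths (from 26 to 33 low values in each mixed wild type library).

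limma 3.58.1 (R 4.3.3) was fitted with a mean-variance trend to log2(RPKM + 0.5) of the 6 libraries, with a minimum mean of 1 RPKM, which all 128 genes passed. Folds are ratios of mean RPKM; log2 differences understate changes of low genes. An exact permutation test of 3 against 3 cannot go below p = 0.1. The code was tested on simulated data.

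The genes and the 33 lists were chosen with earlier results of these data known. The rule for naming genes took 97 shared genes, of which the text gives a part: the 12 largest rises and falls among called genes with groups apart and a mean of at least 2 RPKM, called genes past 2-fold, up to 4 of the most abundant members of each list, the 6 most abundant genes, the 5 with the smallest difference, and genes whose call changed when a library was left out. Mixed genes outside the inbred list at 2 RPKM or more were also named. Words of 31 bases were compared on both strands in GENCODE M21, to which all 128 genes matched; RefSeq gene order placed 125. Alternatives are in the closing section. Python 3.11.15, numpy 2.4.6, pandas 2.3.3, scipy 1.17.1 and matplotlib 3.10.9 did the remaining steps.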

Additional observations from a re-analysis of the deposited data

Results flagged for a closer look

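Of the 62 genes of the mixed list that are not in the inbred tables, 3 had a mean in mixed wild type at or above 2 RPKM, below which no inbred mean is listed, and so stand out as signal without an inbred value. Arl5c, a small GTPase gene, was at 1.93, 3.56 and 3.72 RPKM (mean 3.07). Elavl4, a neuronal RNA-binding protein gene, was at 3.18, 2.93 and 2.69 RPKM (mean 2.93). Igkc, the immunoglobulin kappa constant gene of B cells, was at 1.84, 3.01 and 2.32 RPKM (mean 2.39). Whether these genes were below 2 RPKM in inbred lenses or left out by another rule was not tested. Of the other genes 17 had means of 1 to 2 RPKM and 42 were below 1 RPKM.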

How the results depend on the processing

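The count of 63 calls stayed within 1.5 times in all settings without a minimum fold (46 to 83). With a minimum of 1.5-fold it was 25 (13 higher, 12 lower) and of 2-fold 3 (2 higher, 1 lower). Under median centring 23 were higher and 37 lower, and in the authors' normalized values 65 were higher and 18 lower. Leaving out 1 library gave 46 to 62 calls, 27 to 40 of them higher and 17 to 22 lower, the fewest without inbred replicate 3. A turn of direction, with a call in either fit, was looked for in the 97 genes of the naming rule only. Under quantile normalization Tppp3 (-0.065), Pgap2 (-0.10), mt-Atp6 (-0.25), Rpl37a (-0.19), Gcg (-0.31) and Rps28 (-0.15) turned. In the normalized values Hist1h2af (-0.037), Uchl1 (0.089), Tubb2a (0.33), Tubb2b (0.013) and Adc (0.00294) turned, and with exon length removed Rpl37a (-0.23). The cause was not tested. Same-numbered libraries did not deviate together (correlations across genes of -0.52, -0.15 and -0.24), so the numbers are not taken as pairs; with the replicate number as a block 47 genes were called, 30 higher and 17 lower, 46 of them among the 63. Filters, pseudocounts, limma without trend, weights from recovered reads and a joint fit of 9 libraries gave 60 to 65 calls, and the 94 genes sharing under 10% of their words gave 46. The limit to genes with at least 0.5 of the median normalized value per RPKM (48 of 98 called) and the removal of exon length (62 called) were chosen after seeing the data.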
